A study of Homo sapiens with 6 samples.

Results

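Centromere, kinetochore and spindle checkpoint genes were followed in H9, a widely used line of human embryonic stem cells, after knockdown of the RNA transcribed from alpha satellite (ALR), the repeat that human centromeres are built on. The set holds 42 genes of the 53719 rows in the count table. They were listed by gene name, with earlier results of these data known. CENPC and CENPU stand in the table under their older symbols CENPC1 and MLF1IP, and SGOL1 and SGOL2 are the older symbols of SGO1 and SGO2. Of the 42, 40 had enough counts to be tested, and 2, CENPN and PMF1, did not.

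A centromere is marked by nucleosomes that carry CENP-A in place of histone H3. A group of proteins called the constitutive centromere network sits on this chromatin throughout the cell cycle. In mitosis the outer kinetochore is built on it and grips microtubules. The spindle checkpoint holds back anaphase until every kinetochore is attached, and the chromosomal passenger complex corrects faulty attachments. Many of these genes are transcribed mainly in the later part of the cell cycle, so their messenger RNAs are usually plentiful in dividing cells.

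All cells were kept in RSeT medium, sold for a naive-type state, and took up a gapmer for 48 h. A gapmer is an antisense oligonucleotide with a DNA core that lets RNase H cut the paired RNA. The knockdown group, titled Sense3, received the gapmer against ALR, and the control group received a control gapmer, with 3 libraries each (a, b and c). The labels do not say whether the libraries came from separate cultures, so p-values measure the spread between these libraries, which may be technical. The labels enter knockdown or control as the genotype, name the same line for both groups, and give no other difference. No row for ALR RNA itself was used here, so the depth of the knockdown was not checked. The question is whether loss of the centromeric RNA was accompanied by a change in the messenger RNAs of the proteins that assemble on the same repeats.

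Total counts ran from 25087629 to 36576752 per library, and the 42 genes together took 0.264% to 0.289% of them. Knockdown library a had a count in 29678 rows against 25898 to 26788 in the other 5 libraries. The pluripotency genes NANOG (175 to 204 CPM, counts scaled to a common library total) and POU5F1 (87.8 to 152) were present in all libraries. So were LIN28A, DPPA4, SALL4 and TDGF1, whereas SOX2 of the same list had 0 counts in every library. Of 7 naive-state markers, DPPA3, KLF4 and TFCP2L1 had 423 to 1073 counts per library, DPPA5, SUSD2 and DNMT3L 23 to 97 and KLF17 1 to 10. The primed-state markers ZIC2, SFRP2, DUSP6 and OTX2 were present as well, at 217 to 2816. Among markers of other cell types, the 4 of trophoblast had 0 to 27 counts, the 3 of endoderm 0 to 45 and the 2 of neural cells 3 to 96. Of the 3 mesoderm markers, MIXL1 had 317 to 470 counts and T and MESP1 had 0 to 9. Of the 4 fibroblast markers, COL1A1 and COL1A2 were present and DCN and LUM had at most 11 counts and 1 count.

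No member changed past the threshold. With edgeR's quasi-likelihood test over all 19721 genes tested, 0 of the 40 tested members had a Benjamini-Hochberg adjusted p under 0.05, against 0.786% of all genes (0.137% higher and 0.649% lower in knockdown). The 155 genes that passed split into 27 higher and 128 lower, but into 56 and 102 when libraries were scaled by their totals alone and 45 and 112 with upper-quartile scaling; the members passed under none of these scalings. In bulk RNA, fewer cells in mitosis and less RNA per cell cannot be told apart. The smallest adjusted p of a member was 0.255, for CENPP. At an unadjusted p under 0.05 there were 3 members, CENPB higher and CENPK and CENPP lower, of 40, where 14.3% of all genes reached that level (6.68% higher, 7.57% lower). With DESeq2's Wald test 0 members passed as well, and 2, CENPB and CENPK, had an unadjusted p under 0.05. This balance of directions depended on the scaling. With libraries scaled by their totals alone 6 members had an unadjusted p under 0.05 in edgeR's test (CENPB, SPC24, ZWINT, INCENP and CDCA8 higher, CENPP lower), and with upper-quartile scaling 5 did (the same without CDCA8). Leaving out 1 library also moved the count: it was 6 without knockdown library c, 1 without knockdown library a or control library b, and 0 without knockdown library b or control library c.

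The size of change that the data allow was small for nearly all of these genes. The 95% interval of the log2 fold change (knockdown over control) lay inside a 1.5-fold change in either direction for 39 of the 40 members, the exception being CENPP. The half-width of the interval was 0.16 at the median on the log2 scale, from 0.13 to 0.36. Over all genes tested, 63.2% of the intervals lay inside a 1.5-fold change, and the median half-width was 0.25. A change smaller than a gene's own half-width could not be told from no change at this replication. The median log2 fold change was 0.041 over the 40 members and 0.020 over all genes tested, with 25 members above 0 and 15 below; 54.4% of all genes tested were above 0.

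**Figure D1:**
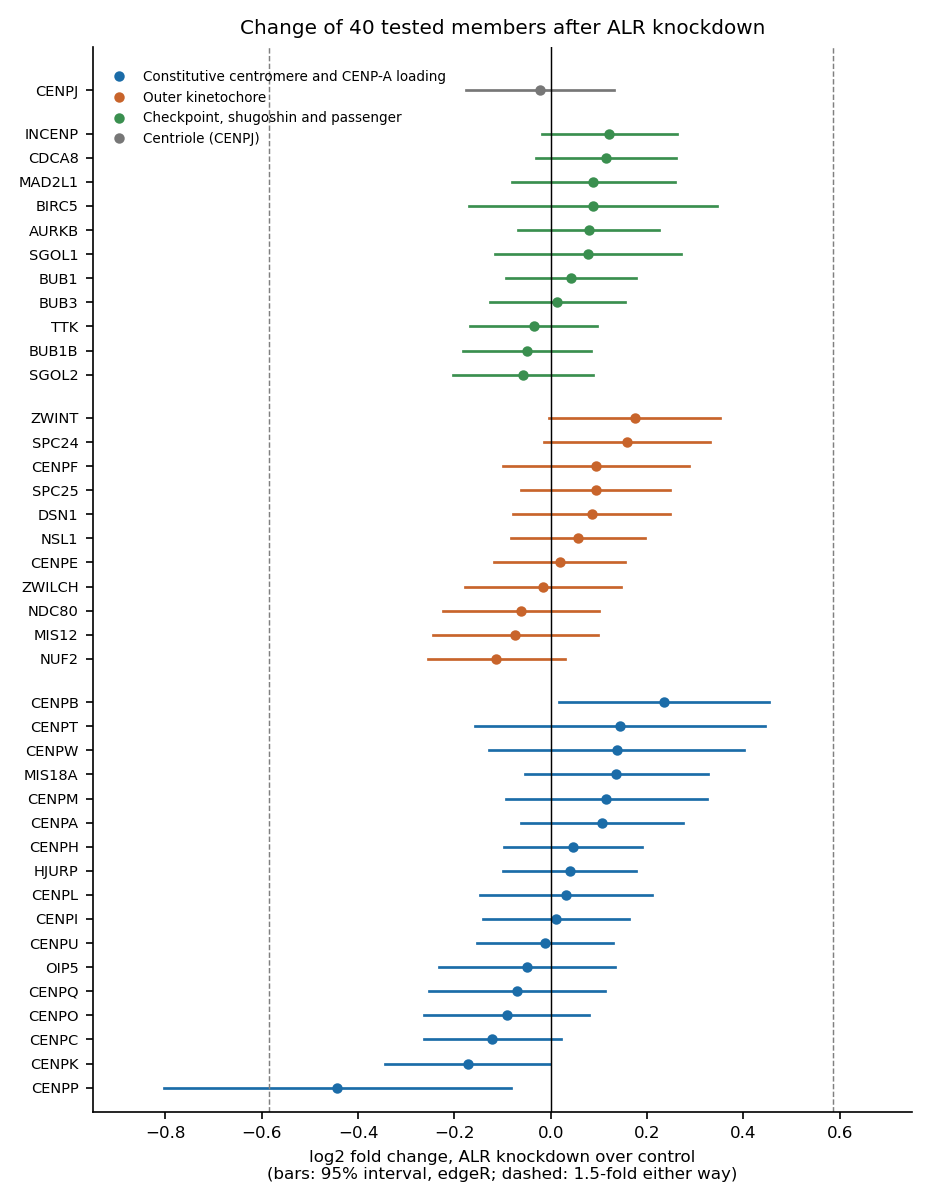
Log2 fold change (knockdown over control, x axis) of the 40 tested members, ordered by class and size on the y axis. Points are edgeR estimates, bars their 95% intervals, and dashed lines mark a 1.5-fold change either way; only the interval of CENPP crosses a dashed line.

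The members' promoters were searched for a feature of cell cycle genes. The cell cycle homology region (CHR) is a short element through which the DREAM and MYB-MuvB complexes hold late cell cycle genes off or on. Its common form TTTGAA (either strand) or the variant TTTAAA, which reads the same on both strands, was searched from 250 bases before to 50 bases after the start in RefSeq promoters (GRCh38.p14). It occurred in 16 of 34 members with a listed window (47.1%), and in 27.9% of the 27305 genes in the promoter table. Among mitotic genes outside the kinetochore it occurred in 11 of 12 (91.7%). By class it occurred in 5 of 14 constitutive centromere genes (35.7%), 6 of 12 outer kinetochore genes and 5 of 8 checkpoint and passenger genes. A match is a description of the letters and does not show a working site.

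The 60 bases that end just before the start are shown, 5′ to 3′ on the gene's strand, for the 4 members that hold TTTGAA there in that direction, and for CENPB, whose window has no match. Capitals mark TTTGAA. The stretch of CENPA is chr2:26785996-26786055 (plus strand), that of BUB1B chr15:40161009-40161068 (plus), that of INCENP chr11:62123951-62124010 (plus), that of CDCA8 chr1:37692456-37692515 (plus) and that of CENPB chr20:3786741-3786800 (minus).
CENPA: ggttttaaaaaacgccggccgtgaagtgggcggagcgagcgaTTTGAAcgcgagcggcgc
BUB1B: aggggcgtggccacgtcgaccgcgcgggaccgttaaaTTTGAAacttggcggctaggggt
INCENP: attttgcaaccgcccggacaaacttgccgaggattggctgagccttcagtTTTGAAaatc
CDCA8: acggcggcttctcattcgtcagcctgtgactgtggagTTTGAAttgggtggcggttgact
CENPB: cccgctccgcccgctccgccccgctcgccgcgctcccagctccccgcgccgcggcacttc

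The constitutive centromere and CENP-A loading genes held the members furthest from 0 in both directions. Of 18 genes, 17 were tested, 10 lay above 0 and 7 below, and the median log2 fold change was 0.032, with a range of -0.44 to 0.24. None passed the adjusted threshold. In edgeR's test, 3 of the 17 had an unadjusted p under 0.05, where 14.3% of all genes reached that level.

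CENPA (ENSG identifier ENSG00000115163.14, GRCh38 chr2:26764289-26801067) encodes the histone variant that defines the centromere. It had 21.78 (a), 21.99 (b) and 20.34 (c) CPM after knockdown and 19.56 (a), 19.74 (b) and 20.26 (c) CPM with the control gapmer. All 3 knockdown values stood above all 3 controls, by a margin of less than 0.1 CPM between knockdown library c and control library c. The means were 21.4 ± 0.902 against 19.9 ± 0.363 CPM (SD, n = 3 each). The log2 fold change was 0.11 ± 0.078 (SE; 95% interval -0.062 to 0.28; edgeR adjusted p = 0.569), which did not pass.

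The loading factors of CENP-A gave close values in both groups. HJURP, the chaperone that brings CENP-A to the centromere, had 70.4 ± 2.89 against 68.5 ± 1.70 CPM (SD, n = 3 each). MIS18A and OIP5, subunits of the complex that prepares the centromere for loading, had log2 fold changes of 0.14 and -0.050. The groups overlapped for all 3 of these genes.

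CENPB (chr20:3783851-3786690, a gene of a single exon) encodes the protein that binds a short box within alpha satellite DNA itself. It had 26.6 (a), 32.7 (b) and 30.5 (c) CPM after knockdown and 28.3 (a), 25.6 (b) and 22.5 (c) CPM with the control gapmer. Knockdown libraries b and c stood above every control, but knockdown library a lay below control library a, so the groups overlapped. Knockdown over control, the log2 fold change of CENPB was 0.24 ± 0.10 (SE; 95% interval 0.018 to 0.45; edgeR adjusted p = 0.314). CENPB was the highest member by fold change, and it stayed above 0 in all 15 other settings tried, at 0.15 to 0.32, without passing in any.

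CENPC (chr4:67468748-67545606) links CENP-A nucleosomes to the outer kinetochore. It had 56.7 (a), 58.6 (b) and 60.8 (c) CPM after knockdown and 63.4 (a), 61.4 (b) and 66.8 (c) CPM with the control gapmer. Every knockdown value lay below every control value. The difference was nevertheless small, with a log2 fold change of -0.12 ± 0.065 (SE; 95% interval -0.26 to 0.021; edgeR adjusted p = 0.430).

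CENPP (chr9:92325484-92620533), a subunit of the O, P, Q and U subcomplex, had the lowest fold change of any member. It had 44.2 (a), 38.4 (b) and 67.4 (c) CPM after knockdown and 76.8 (a), 59.7 (b) and 66.9 (c) CPM with the control gapmer. Knockdown libraries a and b were the lowest of the 6, whereas knockdown library c stood above control libraries b and c. The knockdown libraries had an SD of 15.3 CPM against 8.61 in the controls (n = 3 each), and relative to the mean this was the widest knockdown spread of any tested member. This gave a log2 fold change of -0.44 ± 0.17 (SE; 95% interval -0.80 to -0.083; edgeR adjusted p = 0.255).

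The call for CENPP depended on 1 library. Without knockdown library c the log2 fold change was -0.74 and the edgeR adjusted p was 0.00273. In that fit 1309 genes passed in all, against 155 with every library. Without knockdown library b the log2 fold change was -0.29 (edgeR adjusted p = 0.530). CENPP also passed when no low-count filter was used, and its adjusted p ran from 1.81e-05 to 0.591 over the 15 alternatives, which include DESeq2 and limma-voom. CENPP spans 295050 bases, of which 63.4% lie outside other genes of the table, so its counts are uncertain. This is not particular to CENPP: the share was 49.3% for SPC25, 50.1% for ZWILCH, 53.1% for SGOL1, 53.9% for CENPA and 63.4% for CENPT.

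The partner subunits of CENPP lay nearer to 0. CENPO had 47.7 ± 1.63 against 50.8 ± 4.99 CPM (SD, n = 3 each), CENPQ a log2 fold change of -0.070 and CENPU one of -0.011, and the groups overlapped in all of these. No test of the difference between subunits was made.

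CENPK, which works with CENPH and CENPI in a subcomplex that helps recruit new CENP-A, had 76.2 (a), 76.2 (b) and 87.4 (c) CPM after knockdown and 82.8 (a), 96.5 (b) and 90.7 (c) CPM with the control gapmer. Knockdown libraries a and b were below all controls, and knockdown library c lay between control libraries a and c. For CENPK the log2 fold change was -0.17 ± 0.079 (SE; 95% interval -0.34 to -0.0008; edgeR adjusted p = 0.348). CENPH (0.047) and CENPI (0.011) were close to 0.

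The remaining members of the network had the following values. CENPL, which contacts CENP-A chromatin together with CENPN, had a log2 fold change of 0.032, and CENPM had 0.12. CENPT and CENPW, histone-fold proteins that form a second bridge to the outer kinetochore, had 0.14 and 0.14. CENPT had only 183 to 251 counts per library, the fewest of the tested members, and its interval was correspondingly wide (-0.16 to 0.44).

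CENPN and PMF1 had too few counts for a test. CENPN had 1 count in knockdown library a, 2 in control library b and 0 in the other libraries, and PMF1 had 0 in all 6. The whole span of PMF1 lies within other genes of the table, among them the read-through gene PMF1-BGLAP. The exons of CENPN share 22.8% of their bases with other genes, such as CMC2 on the opposite strand. Protein-coding genes lying wholly within others, with a gene of the same strand among these as for PMF1, were at 0 in 68.1% of 496 cases, against 7.04% of 10762 genes outside other genes. CENPN has 48.3% of its span outside other genes. Of 7195 genes partly within others, whatever the share of their span, 4.60% were at 0. Genes of a like share were not compared, and what holds the count of CENPN near 0 was not tested. Among the tested members, exons shared bases with other genes most in CENPP (42.7%, IPPK and NOL8), OIP5 (38.0%, its antisense gene OIP5-AS1) and CENPO (31.4%, ADCY3 and PTRHD1). CENPA shared 6.96%, with SLC35F6, although only 53.9% of its span lies outside other genes. The counts of these genes are uncertain, and the shared part of the exons does not measure by how much.

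**Figure D2:**
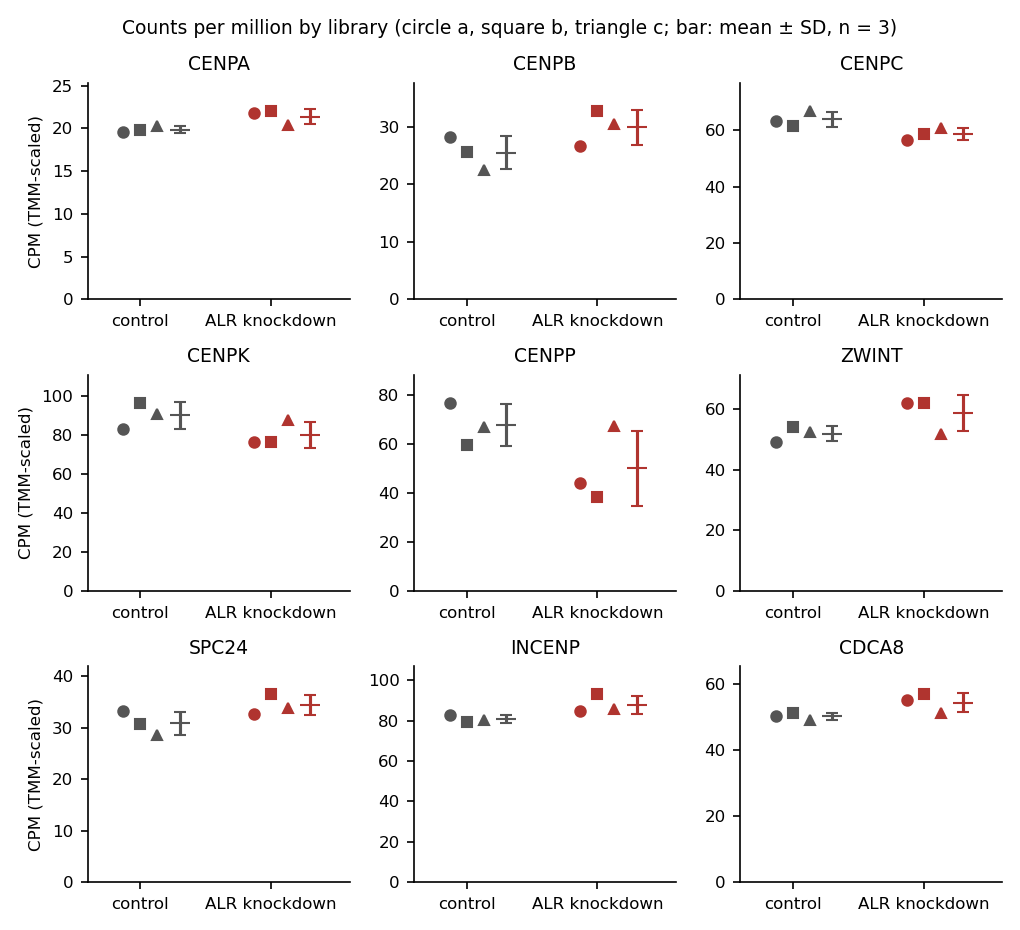
CPM (y axis, from 0) of the 9 members described in full, in control and knockdown libraries (x axis). Each symbol is a library and the bar is the mean ± SD over 3 libraries; in CENPP knockdown library c stands with the controls, and in CENPA, CENPC and INCENP the groups do not overlap.

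The outer kinetochore genes lay on both sides of 0. Of 12 genes 11 were tested, 7 lay above 0 and 4 below, and 0 had an unadjusted p under 0.05 in edgeR's or DESeq2's test. Their median log2 fold change was 0.056, with a range of -0.11 to 0.17, and all 11 intervals lay inside a 1.5-fold change.

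The subunits of the Ndc80 complex, which binds the microtubule, did not lean one way. NDC80 and NUF2, which form its microtubule-binding end, had log2 fold changes of -0.061 and -0.11, and SPC24 and SPC25, which anchor it to the kinetochore, had 0.16 and 0.093. SPC24 had 32.7 (a), 36.5 (b) and 33.9 (c) CPM after knockdown and 33.2 (a), 30.8 (b) and 28.6 (c) CPM with the control gapmer. Knockdown library b was the highest, and knockdown library a lay below control library a. The log2 fold change of SPC24 was 0.16 ± 0.079 (SE; 95% interval -0.014 to 0.33; edgeR adjusted p = 0.391).

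For NUF2 every knockdown value (34.7 to 36.6 CPM) lay below every control value (38.2 to 39.5). For SPC25 every knockdown value (27.1 to 28.6) lay above every control value (25.2 to 26.9). Neither passed (edgeR adjusted p = 0.467 and 0.593). Over all 40 members the groups did not overlap in 5, CENPA, SPC25 and INCENP higher and CENPC and NUF2 lower, whereas they did not overlap in 18.9% of all genes tested (9.55% higher, 9.37% lower). The share among the members was thus not above that background.

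ZWINT, which sits between the outer kinetochore and the checkpoint proteins, had 62.0 (a), 62.2 (b) and 51.8 (c) CPM after knockdown and 49.2 (a), 54.3 (b) and 52.6 (c) CPM with the control gapmer. Knockdown libraries a and b were above all controls and knockdown library c was among them. Its log2 fold change was 0.17 ± 0.082 (SE; 95% interval -0.0034 to 0.35; edgeR adjusted p = 0.360). ZWILCH, part of the complex that brings dynein and checkpoint proteins to the kinetochore, had -0.017.

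The Mis12 complex joins the Ndc80 complex to the centromere. Its measured subunits DSN1, MIS12 and NSL1 had log2 fold changes of 0.085, -0.074 and 0.056. The corona proteins CENPE, a kinesin that moves chromosomes to the spindle equator, and CENPF, a very large coiled-coil protein, had 0.018 and 0.094. Levels of CENPF were 474, 498 and 395 CPM in the knockdown libraries and 397, 447 and 437 in the controls. Knockdown libraries a and b were above all controls and knockdown library c below them; without that library the unadjusted p of CENPF was under 0.05 in edgeR's test, but the adjusted p was not.

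The checkpoint, shugoshin and passenger genes had a narrow range. All 11 were tested, 8 lay above 0 and 3 below, and 0 had an unadjusted p under 0.05 in edgeR's or DESeq2's test. The median log2 fold change was 0.078, with a range of -0.058 to 0.12. Without knockdown library b that median was 0.020.

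The checkpoint kinases and their partners were nearly level. BUB1, a kinase that marks centromeric chromatin and recruits checkpoint proteins, had 259 ± 5.49 against 252 ± 8.60 CPM (SD, n = 3 each). TTK, the kinase that starts checkpoint signalling, had a log2 fold change of -0.036. The parts of the inhibitor that blocks anaphase, BUB1B, BUB3 and MAD2L1, had -0.049, 0.014 and 0.089. The shugoshins, which guard centromeric cohesin until anaphase, had 0.078 for SGOL1 and -0.058 for SGOL2; part of SGOL1 overlaps its antisense gene SGO1-AS1.

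The 4 genes of the chromosomal passenger complex all had values above 0 without passing, and 54.4% of all genes tested lay above 0. INCENP, the scaffold of the complex, had 84.53 (a), 93.01 (b) and 85.90 (c) CPM after knockdown and 82.95 (a), 79.23 (b) and 80.05 (c) CPM with the control gapmer. All knockdown values stood above all controls. The log2 fold change was 0.12 ± 0.065 (SE; 95% interval -0.019 to 0.26; edgeR adjusted p = 0.422).

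CDCA8, the subunit known as borealin, had 55.1 (a), 57.0 (b) and 51.3 (c) CPM after knockdown and 50.5 (a), 51.3 (b) and 49.2 (c) CPM with the control gapmer. Knockdown library c lay just below control library b, so the groups touched. The log2 fold change was 0.12 ± 0.067 (SE; 95% interval -0.030 to 0.26; edgeR adjusted p = 0.466). AURKB, the kinase of the complex, and BIRC5, its survivin subunit, had 0.079 and 0.087.

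CENPJ shares the CENP name but encodes a protein of the centriole, where it sets centriole length. It had 78.0 ± 0.581 against 79.2 ± 6.35 CPM (SD, n = 3 each), and its log2 fold change was -0.023.

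Library by library, the members' levels overlapped between the groups. Each member's log2(CPM + 0.5) was set against its own mean over the 6 libraries, and the median of these deviations over the 40 members came to 0.0070 (a), 0.048 (b) and -0.013 (c) after knockdown. With the control gapmer it came to -0.051 (a), 0.012 (b) and -0.0052 (c). Knockdown library b was the highest and control library a the lowest, and the other libraries of the groups overlapped. In the outer kinetochore class the order differed: control library b was highest (0.055), control library a lowest (-0.068) and knockdown library c next lowest (-0.049).

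Mitotic genes outside the kinetochore (such as CCNB1, TOP2A and KIF11, 14 in all) had their lowest values in the same libraries as the outer kinetochore class. Their median deviation came to 0.062 (a), 0.070 (b) and -0.066 (c) after knockdown and -0.067 (a), 0.0068 (b) and -0.030 (c) with the control gapmer. Their part in the values of the members was not tested.

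**Figure D3:**
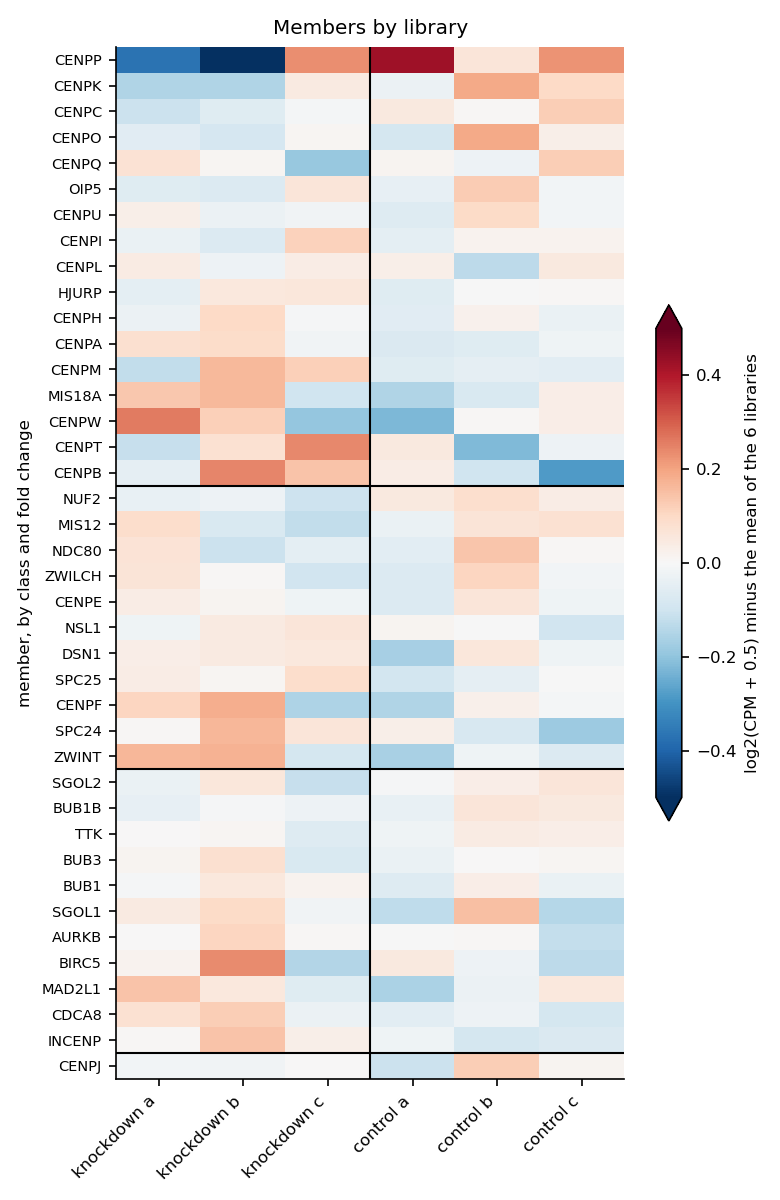
Deviation of each tested member (y axis, grouped by class) in each library (x axis) from its mean over the 6 libraries, in log2(CPM + 0.5). Red is above and blue below the gene's mean; CENPP shows the strongest colours, and no class is uniformly red or blue on one side of the line between knockdown and control.

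Other genes of the same machinery did not pass either. Of 21 tested centromere and kinetochore genes outside the set, 0 passed the adjusted threshold, and the median log2 fold change was 0.016. An unadjusted p under 0.05 in edgeR's test was reached by 3 of the 21, and by 14.3% of all genes. SKA1 and SKA2 belong to a complex that tracks microtubule ends with Ndc80, and they had the smallest p-values of that list in opposite directions. SKA1 had a log2 fold change of 0.24 ± 0.078 (SE; 95% interval 0.070 to 0.41; edgeR adjusted p = 0.192), and SKA2 one of -0.21 ± 0.084 (SE; 95% interval -0.40 to -0.031; edgeR adjusted p = 0.278). Without knockdown library c SKA2 passed, at -0.32 (edgeR adjusted p = 0.0367), and its adjusted p reached 0.605 in the other alternatives.

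The anaphase-promoting complex is the target that the checkpoint inhibits. Of its 20 genes and partners, 0 passed and 3 had an unadjusted p under 0.05, all higher, where 14.3% of all genes reached that level (6.68% higher), and the median log2 fold change was 0.039. CDC20 and FZR1, its activators, had the smallest p-values. CDC20 had 111 (a), 124 (b) and 109 (c) CPM after knockdown and 103 (a), 102 (b) and 92.0 (c) CPM with the control gapmer, so every knockdown value stood above every control, as in 9.55% of all genes tested. Its log2 fold change was 0.21 ± 0.073 (SE; 95% interval 0.051 to 0.37; edgeR adjusted p = 0.227), and that of FZR1 was 0.20 ± 0.081 (SE; 95% interval 0.025 to 0.38; edgeR adjusted p = 0.287). Among the 14 mitotic genes outside the kinetochore 0 passed and 0 had an unadjusted p under 0.05 in edgeR's test, with TPX2 (0.13) and TOP2A (0.14) having the smallest p-values.

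Fold change of the members went with the length of the gene. Across the 40 members Spearman's rho between the log2 fold change and the span of the gene in GENCODE 29 was -0.57, and over the 15962 tested genes with a span it was -0.17. These are descriptions across genes of the same 6 libraries, and genes are not independent replicates. The 6 members under 10 kb had a median of 0.13 (all genes 0.073), and the 17 between 30 and 100 kb had -0.017 (all genes 0.013). CENPB, the highest member, has the shortest gene (2840 bases) and CENPP, the lowest, the longest.

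In a fit that took out, library by library, the dependence of counts on gene span, the class medians moved down, and so did the median of all genes, from 0.020 to -0.011. The constitutive centromere median went from 0.032 to -0.011 and the checkpoint and passenger median from 0.078 to 0.010. CENPB was then at 0.17 (edgeR adjusted p = 0.406) and CENPP at -0.40 (edgeR adjusted p = 0.176). Among the passenger genes, INCENP was at 0.080, CDCA8 at 0.065, BIRC5 at 0.029 and AURKB at 0.010. No member passed in that fit either, and rho over the members was -0.46.

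**Figure D4:**
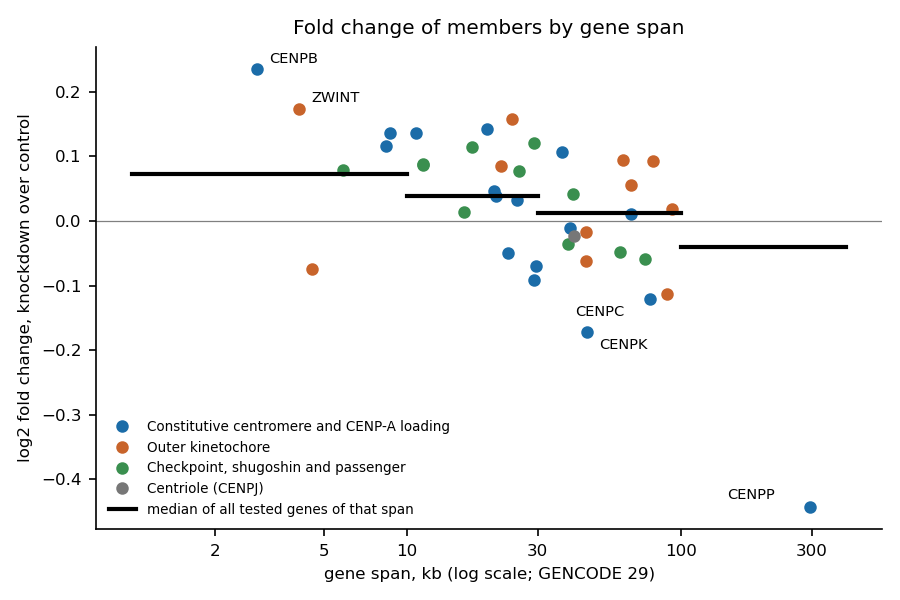
Log2 fold change of the 40 tested members (y axis) against gene span in kb (x axis, log scale), coloured by class. Black bars are the medians of all tested genes of each span class; CENPB stands at the upper left and CENPP at the lower right.

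The medians of members with and without the CHR letters were close. The 15 tested members with it had a median log2 fold change of 0.039 (range -0.12 to 0.17), and the 17 without it 0.042 (range -0.44 to 0.24). The 4 genes printed with TTTGAA had 0.11 (CENPA), -0.049 (BUB1B), 0.12 (INCENP) and 0.12 (CDCA8), and CENPB, without it, had 0.24. No test of this difference was made.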

How the data were processed

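RNA-seq libraries (directional NEBNext Ultra II, per the labels' protocols) were made from 3 knockdown and 3 control samples. The authors deposited raw read counts per gene symbol, not normalized. The submitters' processing notes list Trimmomatic 0.39, STAR 2.7.8a, featureCounts, Subread and the build hg38. The annotation, the strand setting and the handling of shared reads are not given in the sources used here.

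Counts were tested with edgeR 4.0.16 (R 4.3.3): filterByExpr at its defaults, TMM scaling, quasi-likelihood test with group as the only term, Benjamini-Hochberg adjustment over all 19721 genes tested, threshold 0.05. CPM use TMM-scaled library sizes. Intervals of fold changes are the estimate and its SE with the t quantile of the fit. Alternatives were other scalings, DESeq2 1.42.0, limma-voom (limma 3.58.1), other filters, a replicate block, removal of the trend on gene span (natural spline, 5 degrees of freedom) and leaving out each library. Positions and spans come from GENCODE 29 (GRCh38), and promoters from RefSeq. The code was tested on simulated counts.

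The members and lists were chosen with earlier results of these data known. Full values were given for CENPA, CENPB and CENPC, for members with an unadjusted p under 0.05, and for the 2 members of each class with the largest change and a mean count of at least 50. From each other list at most 2 genes, those with the smallest p, were given. Other members were named by role, and no column was left unmapped.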

Additional observations from a re-analysis of the deposited data

How the results depend on the processing

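Over the 15 alternatives, 0 members passed in 13 and 1 member, CENPP, passed in 2: with no low-count filter and without knockdown library c. With no filter (32300 genes) the fit estimated 486 prior degrees of freedom against 8.11, the SE of CENPP was 0.08 against 0.17, and its edgeR adjusted p was 1.81e-05. The count of all genes past the threshold, 155 with all libraries, was 530 with DESeq2's Wald test, 1064 with no filter, 393 with the replicate block and 235 with the gene length trend removed; the cause was not tested. Leaving out each library gave 26 to 1309 genes and 0 to 1 members: 102 (knockdown a), 61 (knockdown b), 1309 (knockdown c), 26 (control a), 42 (control b) and 42 (control c) genes. The block moved no member past the threshold (lowest edgeR adjusted p 0.0565, CENPP). The labels do not say whether the letters pair libraries across the groups. Deviations from the group means correlated at -0.011 (a), 0.14 (b) and -0.010 (c). With means of only 3 libraries a group, these values cannot settle whether the libraries were paired.

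With the gene length trend removed, which took the median of all genes from 0.020 to -0.011, the constitutive centromere median was -0.011 and the checkpoint and passenger median 0.010. Leaving out each library gave medians of 0.0010 to 0.041, 0.018 to 0.064 and 0.020 to 0.086 for the constitutive centromere, outer kinetochore and checkpoint classes. The 9 members given in full kept their sign in all alternatives, and up to 4 of the 40 changed sign in any of them. Apart from CENPA, CENPB and CENPC, the 9 were chosen for a small p or a large change in these same data. Their stable sign is therefore no separate support. Depth and 3 libraries a group limit what can be seen to changes of about the interval widths given.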

Other observations

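The table gave 0 counts to many protein-coding genes by position. Of 575 such genes whose whole span lies within genes of the opposite strand only, 531 (92.3%) had 0 in all 6 libraries. Where the whole span was covered and a gene of the same strand covered at least part of it, 338 of 496 (68.1%) were at 0. For partly covered genes the share at 0 was 4.60%, and for genes outside others 7.04%. SOX2, a core pluripotency gene, was at 0 in every library and lies wholly within other genes of the table. So does GSG2, the gene of haspin, a kinase that phosphorylates histone H3 at centromeres in mitosis, which was at 0 as well. ZW10, a partner of ZWILCH at the kinetochore, was also at 0 in every library, although its whole span lies outside other genes. Spans are those of GENCODE 29, and the annotation used for counting is not given in the sources used here.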
